A study of Danio rerio with 1152 samples.

Results

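Zebrafish (Danio rerio) embryos at 50% epiboly were dissociated and single cells were profiled by RNA sequencing with unique molecular identifiers (UMIs, random tags that mark single cDNA molecules). The cells described here are margin cells, which lie at the rim of the blastoderm, split into a dorsal and a ventral class by 3 marker genes. Of 1152 wells, 1000 had at least 2000 detected genes, and 392 of these had at least 1 UMI of TA per 10000 UMIs of the well. TA encodes the T-box transcription factor of the margin known as Brachyury. Dorsal margin cells held at least 2 UMIs of CHD and none of SZL, and ventral margin cells held at least 1 UMI of SZL and none of CHD. These rules gave 110 dorsal and 48 ventral cells of the 1152 wells. All came from unmanipulated offspring of TL/AB in-crosses, staged by eye, about 6 hours after fertilization, and grown at either of 2 temperatures. The labels place the wells in 3 experimental batches of equal size and leave unstated the number of embryos behind each.

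At this stage the dorsoventral axis is patterned by bone morphogenetic proteins (BMPs), secreted ligands that signal most strongly on the ventral side. On the dorsal side the organizer, the fish counterpart of Spemann's organizer, secretes antagonists such as Chordin (CHD), which binds BMPs and keeps them from their receptors. Sizzled (SZL) is a ventral BMP target that inhibits the proteases that cleave Chordin. The VED, VOX and VENT homeobox proteins repress organizer genes, while organizer transcription factors such as Goosecoid (GSC) and Noto specify axial mesoderm. TA, CHD and SZL chose the cells, so their levels are no result and they were left out of all tests.

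The dorsal class held 42, 26 and 42 cells in batches 1, 2 and 3, and the ventral class held 18, 6 and 24. In batch 1 the cells came from plates 5, 6, 7 and 8, with 12, 17, 9 and 4 dorsal cells and 3, 2, 5 and 8 ventral cells on them. The summed counts were 5914204 UMIs for dorsal and 2520777 UMIs for ventral margin cells, and the smallest sum, of the 6 ventral cells of batch 2, was 331755 UMIs. The median cell had 53805 UMIs and 3621 detected genes in the dorsal class, against 50210 UMIs and 3416 genes in the ventral class. Levels are given as UMIs per 10000 UMIs of the summed class in a batch, and a batch is the replicate (n = 3). Margin cells with neither CHD nor SZL, 48.7% of the 392, serve as a further class, and 14 margin cells with 1 CHD UMI and 29 with both genes belonged to no compared class. Among dorsal cells, 1 well of batch 1 and 1 well of batch 2 had counts closer to each other than sampling noise would leave them. Their chi-square, taken over genes with 10 or more UMIs in both wells together, was 0.50 per degree of freedom. This pair held 62765 and 34766 UMIs, with 27 and 11 UMIs of CHD, and results are given with and without it.

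The labels of the classes were checked against markers. All 6 further margin markers (TBX16, MIXL1, WNT8A, NDR1, FGF8A and GATA5) were detected in both classes. Detection alone is no check of the label, because of 8529 tested genes only 53 had no ventral count and none lacked a dorsal count. Of the 6, only MIXL1 is set against cells off the margin here. MIXL1, a Nodal-responsive homeobox gene of the margin, had 2.38, 2.10 and 3.83 UMIs per 10000 in dorsal margin cells, against 0.60, 1.05 and 2.25 in cells with CHD off the margin (TA under 1 per 10000). In ventral margin cells it had 1.95, 2.71 and 2.14, against 0.285, 0.170 and 0.453 in SZL-positive cells off the margin. MIXL1 was thus higher at the margin in each batch on both sides, and its ranges overlapped between margin and off-margin cells on the dorsal side alone. The dorsal label was less uniform than its name. Of 7 organizer markers (GSC, NOTO, NOG1, FRZB, DKK1B, LHX1A and FOXA2), at least 3 were detected in 43 of 110 dorsal cells (39.1%), in 9 of 48 ventral cells (18.8%) and in 26.2% of cells with neither gene. After thinning each cell to 10000 UMIs, which left out 1 dorsal cell, these shares were 18.4% in dorsal cells and 6.25% in ventral cells. At least 3 of 7 ventral markers (VED, VOX, VENT, BAMBIA, EVE1, CDX4 and MSXB) were detected in 92.7% of dorsal cells and in all 48 ventral cells. The same held for all margin cells with neither gene, so this count did not set the ventral class apart from them. The classes are therefore called by their rule, CHD without SZL and SZL without CHD, and dorsal and ventral are used as short names.

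The first comparison asked which other genes separate CHD-positive from SZL-positive cells at the margin. Dorsal margin cells had higher levels of organizer genes (GSC, FRZB, ADMP, FOXA3, DKK1B and NOTO) and lower levels of BMP4, the BMP pseudoreceptor gene BAMBIA and the ventral homeobox genes VED, VOX, VENT and EVE1. Of 8529 genes tested with edgeR's quasi-likelihood test on the 6 sums, 11 were higher in dorsal cells (0.129% of those tested) and 10 were lower (0.117%) at an adjusted p under 0.05. The median log2 difference over all tested genes was 0.15, so that a list's median is read against that value. Of the 8529 estimates 5112 were above 0 and 3417 were below 0, and a list's count of estimates above or below 0 is read against these. Without the near-identical pair of wells 13 genes were higher and 10 lower, and all 21 genes above were among them. Without batch as a block 3 were higher and 4 lower. Of 15 alternative settings, the call ended under none for VED, VOX, BAMBIA, EVE1 and FOXA3, under 1 for ADMP, GADD45BA and NOTO, under 2 for KRT18 and RGCC, under 3 for CST3 and under 4 for DKK1B. It ended under 5 for APOC1L, BMP4, GSC and XBP1, under 8 for FRZB, FSCN1A and TFDP1B, under 10 for WDR43 and under 12 for VENT.

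**Figure D1:**
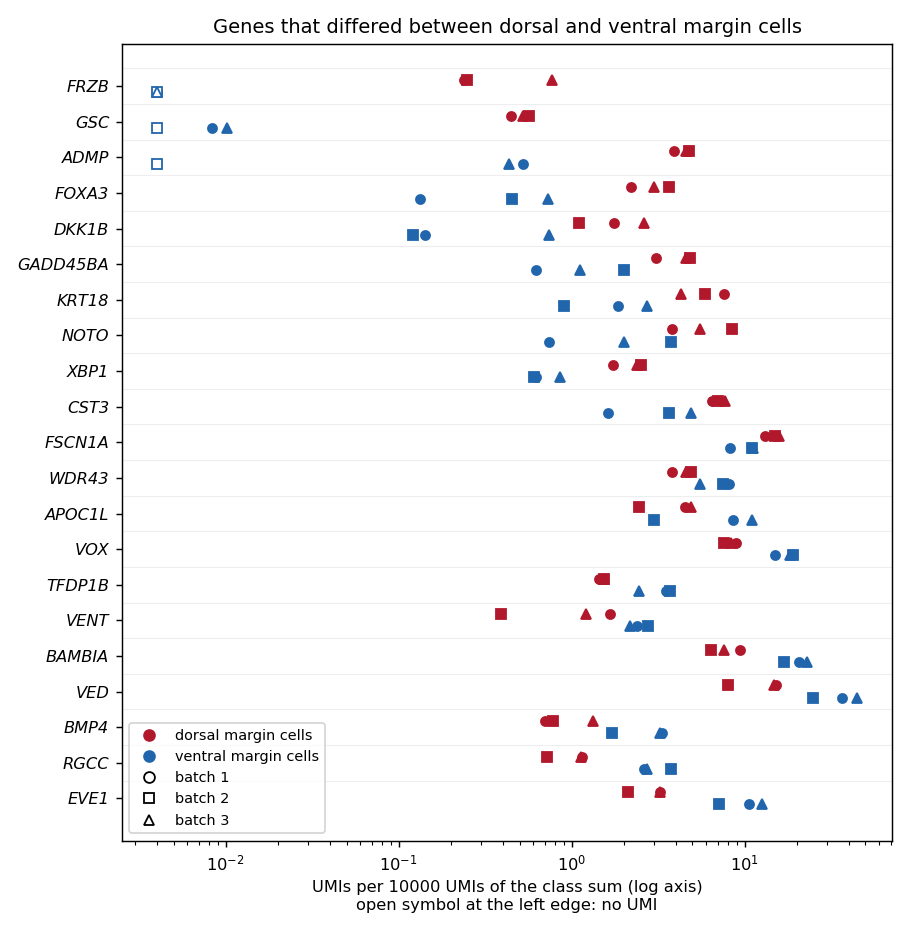
UMIs per 10000 UMIs of the summed class (log axis) for the 21 genes that differed, with 1 symbol per batch in dorsal (red) and ventral (blue) margin cells; open symbols at the left edge mark sums with no UMI. For 20 of the 21 genes the batches of the 2 classes do not overlap, and APOC1L is the exception.

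VED had the smallest adjusted p of all tested genes. It had 15.1, 8.06 and 14.8 UMIs per 10000 in dorsal margin cells of batches 1, 2 and 3, against 36.6, 24.8 and 44.9 in ventral margin cells. The classes did not overlap, and the log2 difference was -1.53 ± 0.095 (SE), with an edgeR adjusted p of 2.63e-22. VOX, its relative with a similar repressor role, had 8.95, 7.58 and 8.37 in dorsal cells, against 15, 19 and 18.2 in ventral cells. Its dorsal batches lay close together and well below the ventral ones, with a log2 difference of -1.09 ± 0.12 and an adjusted p of 1.30e-10. VENT, the third gene of this kind, had 1.67, 0.389 and 1.22 in dorsal cells, against 2.40, 2.77 and 2.19 in ventral cells. Its call was the weakest of the 21 (log2 difference -1.36 ± 0.34, adjusted p = 0.0469) and was lost under 12 of the 15 alternatives.

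EVE1, an even-skipped homeobox gene of the ventral and posterior margin, had 3.25, 2.13 and 3.26 UMIs per 10000 in dorsal margin cells, against 10.5, 7.14 and 12.6 in ventral margin cells. Every dorsal batch was below every ventral batch, and the log2 difference of -1.83 ± 0.16 (adjusted p = 8.35e-15) was the largest fall among the called genes. BAMBIA, which encodes a membrane protein that resembles a BMP receptor but cannot signal, had 9.41, 6.38 and 7.64 in dorsal cells, against 20.5, 16.9 and 23.1 in ventral cells. That separation gave a log2 difference of -1.41 ± 0.12 and an adjusted p of 7.60e-16. BMP4 itself, a BMP ligand, had 0.706, 0.784 and 1.33 in dorsal cells, against 3.35, 1.72 and 3.23 in ventral cells. The highest dorsal batch stayed below the lowest ventral batch (log2 difference -1.59 ± 0.31, adjusted p = 9.50e-04). BMP4 lost its call without batch 1, without batch 3, without batch as a block, with cells thinned to 10000 UMIs and with limma, and its estimates under the alternatives lay between -1.95 and -0.66, the last with limma on the log2(value + 1) scale.

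The pathway around these genes was described from lists of its parts. Among 14 tested BMP ligands, receptors and Smads, ADMP was higher, BMP4 was lower and 12 did not pass the test, with a median log2 difference of 0.39. BMP7A, a partner of other BMPs in ligand dimers, had 1.16, 0.469 and 0.816 UMIs per 10000 in dorsal margin cells, against 1.88, 1.84 and 1.45 in ventral margin cells. Its batches did not overlap, yet the adjusted p was 0.491. BMP2B, the other early ligand of the ventral side, had 0.280, 0.248 and 0.397 in dorsal cells and 0.498, 0.121 and 0.274 in ventral cells, which overlap. Of the receptors, ACVR1L, the type I receptor known as Alk8, had 2.77, 2.3 and 2.32 in dorsal cells and 1.65, 1.18 and 1.77 in ventral cells, without overlap and with an adjusted p of 0.936. Over all tested genes, 8.15% had every dorsal batch above every ventral batch and 3.11% had every dorsal batch below.

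Of 8 tested extracellular BMP modulators, BAMBIA alone passed the test, and the list's median was 0.48. NOG1, which encodes the BMP antagonist Noggin, had 83 UMIs in dorsal margin cells (0.0345, 0.0804 and 0.342 per 10000) and 0 in ventral margin cells, with an adjusted p of 0.572. The protease genes BMP1A and TLL1 and the Chordin partner genes TWSG1A and TWSG1B had overlapping batches.

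Most BMP feedback and target genes had lower estimates in dorsal margin cells. Of 23 tested, 4 were lower in dorsal margin cells (VED, VOX, VENT and EVE1), none was higher, and 21 of 23 estimates were below 0, with a median of -0.89. Several that did not pass still had no overlap between classes. ID2A, an inhibitor of helix-loop-helix proteins, had 0.311, 0.315 and 0.391 UMIs per 10000 in dorsal cells, against 1.43, 0.814 and 0.874 in ventral cells (adjusted p = 0.562). MSXB, a homeobox gene, had 0.272, 0.315 and 0.529 in dorsal cells, against 1.13, 0.693 and 1.37 in ventral cells (adjusted p = 0.561). CDX4, a posterior homeobox gene, had 0.395, 0.362 and 0.485 in dorsal cells, against 1.05, 1.05 and 1.38 in ventral cells (adjusted p = 0.491). All 3 lay lower in every dorsal batch. ID1, a widely used BMP response gene, did not follow them: it had 27.8, 35.8 and 32.4 in dorsal cells and 35.8, 35.3 and 37 in ventral cells, which overlap (log2 difference -0.21 ± 0.083, adjusted p = 0.884). GATA3, a transcription factor of ventral ectoderm, had 0.272, 0.322 and 0.0661 in dorsal cells, against 0.0166, 0 and 0.0102 in ventral cells (adjusted p = 0.884), the reverse of most BMP feedback and target genes. Without the keratin-high cells described below, GATA3 had 0.272, 0.0435 and 0.00641 in dorsal cells, against 0.0177, 0 and 0.011 in ventral cells. Its dorsal level was then much lower in batch 2 and below the ventral level in batch 3.

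Organizer and axial mesoderm genes had the highest median difference of the 19 lists. The lists share genes and were chosen with earlier results of these data known, so this rank is a description. Of 20 tested, 6 were higher in dorsal margin cells, none was lower, and 19 of 20 estimates were above 0, with a median of 2.54. ADMP, a BMP-like ligand made by the organizer, had 3.93, 4.75 and 4.58 UMIs per 10000 in dorsal cells, against 0.523, 0 and 0.437 in ventral cells. Each dorsal batch was far above the ventral ones (log2 difference 3.71 ± 0.35, adjusted p = 1.83e-13), and 70.9% of dorsal cells held an ADMP UMI, against 29.2% of ventral cells. ADMP was called with edgeR and limma, and lost its call in DESeq2's Wald test (adjusted p = 0.374).

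NOTO, a homeobox gene of the notochord, had 3.81, 8.49 and 5.51 UMIs per 10000 in dorsal margin cells, against 0.739, 3.74 and 2.02 in ventral margin cells. The lowest dorsal and the highest ventral value nearly met, while within every batch the dorsal value was higher (log2 difference 1.62 ± 0.21, adjusted p = 3.50e-08). FOXA3, a forkhead gene of axial mesoderm and endoderm, had 2.20, 3.67 and 2.99 in dorsal cells, against 0.133, 0.452 and 0.732 in ventral cells (log2 difference 2.92 ± 0.36, adjusted p = 8.38e-09). DKK1B, which encodes a secreted Wnt antagonist, had 1.75, 1.11 and 2.63 in dorsal cells, against 0.141, 0.121 and 0.742 in ventral cells (log2 difference 2.75 ± 0.47, adjusted p = 7.04e-05). For FOXA3 and DKK1B the batches of the classes did not overlap. A DKK1B UMI was found in similar shares of cells, 41.8% of dorsal and 37.5% of ventral cells. The highest single cell had 25.2 per 10000 in the dorsal and 7.10 in the ventral class.

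GSC and FRZB were sparse. GSC, the classical organizer homeobox gene, had 0.445, 0.570 and 0.523 UMIs per 10000 in dorsal margin cells, against 0.0083, 0 and 0.0102 in ventral margin cells, where 2 UMIs were counted in all (log2 difference 5.86 ± 1.26, adjusted p = 0.00736). A GSC UMI was found in 27.3% of dorsal and 4.17% of ventral cells. FRZB, a secreted Wnt antagonist, had 0.238, 0.248 and 0.766 in dorsal cells and no UMI in ventral cells (adjusted p = 0.00736). With a UMI in 18.2% of dorsal cells, FRZB passed the 5% filter on detection through dorsal cells alone. The class in which it was high thus let it into the test, and its call is given as a description. GSC and FRZB both lost their calls with genes detected in at least 10% of cells. Against a floor of 3 counts over the ventral class, FRZB was at least 33.8-fold higher in dorsal cells. A single dorsal well of batch 3 held 45% of its dorsal UMIs, and without that well the pooled dorsal level was 0.224 instead of 0.402 per 10000. FOXA2, which marks floor plate, notochord and endoderm precursors, had 0.176, 0.141 and 0.617 in dorsal cells, against 0, 0 and 0.0711 in ventral cells, and did not pass (adjusted p = 0.491). FOXB1A, with a UMI in 30.9% of dorsal and 2.08% of ventral cells, and SHHA, with one in 6.36% and 2.08%, did not pass either.

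**Figure D2:**
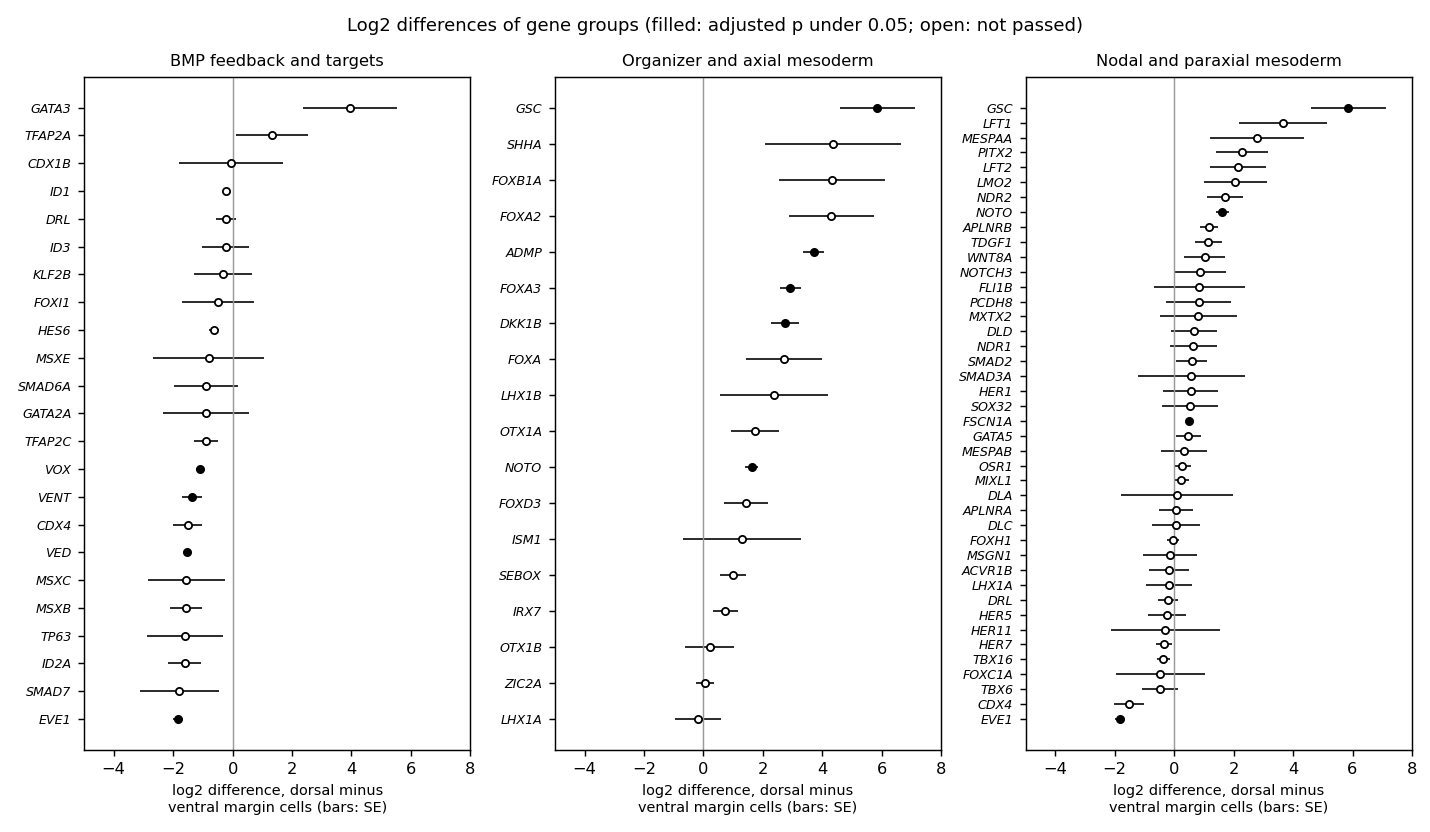
Log2 differences of dorsal minus ventral margin cells with standard errors for tested BMP feedback and target genes, organizer and axial mesoderm genes, and Nodal and paraxial mesoderm genes with a UMI in both classes; filled symbols passed at an adjusted p under 0.05. In the first panel 21 of 23 estimates lie below 0, and in the second all but LHX1A lie above 0; FRZB and NOG1, without a ventral UMI, are not drawn.

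Of the other signalling pathways, 2 of 24 tested Wnt genes were higher in dorsal cells, the secreted antagonists DKK1B and FRZB, and 22 did not pass, with a median of 0.22. DACT2, a modulator of Wnt and Nodal signalling, had 0.867, 1.06 and 1.67 UMIs per 10000 in dorsal margin cells, against 0.357, 0.241 and 0.630 in ventral margin cells (adjusted p = 0.491). The ligand pair WNT8A and WNT8-2, which come from neighbouring open reading frames and cannot be counted apart with certainty, had overlapping batches. Among 18 Nodal genes, GSC, NOTO and FSCN1A were higher and none was lower, with a median of 0.61. The Nodal ligand gene NDR2 had 0.671, 0.677 and 1.63 in dorsal cells, against 0.440, 0.0301 and 0.508 in ventral cells (adjusted p = 0.679), while NDR1 had 0.376, 0.396 and 0.501, against 0.207, 0.392 and 0.234 (adjusted p = 1.00). The Nodal antagonist gene LFT1 had 0.299, 0.141 and 0.441 in dorsal cells, against 0.124, 0 and 0 in ventral cells (adjusted p = 0.884), and the co-receptor gene TDGF1 had 1.06, 1.67 and 1.02, against 0.598, 0.874 and 0.295 (adjusted p = 0.884). Every dorsal batch lay above every ventral batch for NDR2, LFT1 and TDGF1, whereas NDR1 overlapped.

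No FGF gene of 20 tested passed, although 18 of the 20 estimates were above 0, with a median of 0.89. The ligand gene FGF8A had 0.943, 1.33 and 0.986 UMIs per 10000 in dorsal margin cells, against 0.398, 0.482 and 0.620 in ventral margin cells (adjusted p = 0.988). The FGF feedback gene DUSP4 had 1.15, 1.33 and 2.51 in dorsal cells, against 0.166, 0.603 and 1.26 in ventral cells (adjusted p = 0.116). FGF24 and FGF3 had 87 and 37 UMIs in dorsal cells and 7 each in the smaller sum of ventral cells, and neither passed. Pooled per 10000, FGF24 had 0.147 in dorsal and 0.0278 in ventral cells, and FGF3 had 0.0626 and 0.0278. In batch 1 FGF3 was lower in dorsal cells (0.0384 against 0.0581). FGF8A was separated between classes, and DUSP4 was not.

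Germ layer lists showed few differences beyond those above. Of 9 retinoic acid genes none passed (median 0.19), with RDH10A at a log2 difference of 1.45 ± 0.72 and DHRS3B at 0.98 ± 1.5. Of 24 paraxial and ventrolateral mesoderm genes, EVE1 alone was lower (median 0.07). APLNRB, an apelin receptor gene of migrating mesendoderm, came closest among the others with 1.78, 1.92 and 3.95 UMIs per 10000 in dorsal margin cells, against 0.714, 0.573 and 2.47 in ventral margin cells (adjusted p = 0.0794). It was called without the near-identical pair of wells. Among 8 endoderm genes FOXA3 alone was higher (median 0.50), and the endoderm gene SOX32 had 0.211, 0.147 and 0.545 in dorsal cells and 0.266, 0 and 0.528 in ventral cells. Of 23 neural and animal ectoderm genes none passed (median 0.21). In that list GLI1, the effector gene of Hedgehog signalling, had 0.0997, 0.429 and 0.408 in dorsal cells, against 0, 0 and 0.0711 in ventral cells (adjusted p = 0.561).

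FSCN1A, which encodes the actin-bundling protein fascin, was the only called gene of 33 on cell movement and adhesion (median 0.11). It had 13.1, 14.9 and 15.8 UMIs per 10000 in dorsal margin cells, against 8.27, 11.1 and 11.1 in ventral margin cells (log2 difference 0.50 ± 0.12, adjusted p = 0.0269). This was the smallest of the 11 rises, and 8 of the 15 alternatives ended its call, among them DESeq2, limma and leaving out batch 1 or batch 3. CXCL12A, a chemokine gene, had 0.671, 0.489 and 0.727 in dorsal cells, against 1.29, 1.05 and 1.39 in ventral cells, without overlap and with an adjusted p of 0.933.

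Other called genes belong to general cell functions. Among 14 p53 and stress genes GADD45BA alone passed (median 0.47), with 3.07, 4.86 and 4.56 UMIs per 10000 in dorsal margin cells, against 0.623, 2.02 and 1.12 in ventral margin cells (log2 difference 1.84 ± 0.25, adjusted p = 2.09e-07). XBP1, a transcription factor of the unfolded protein response and of secretory cells, had 1.73, 2.53 and 2.39 in dorsal cells, against 0.623, 0.603 and 0.854 in ventral cells (log2 difference 1.62 ± 0.35, adjusted p = 0.00736). CST3, which encodes the protease inhibitor cystatin C, had 6.45, 7.05 and 7.70 in dorsal cells, against 1.63, 3.68 and 4.92 in ventral cells (log2 difference 1.15 ± 0.19, adjusted p = 2.91e-05). The dorsal batches of all 3 genes lay above the ventral ones.

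On the ventral side RGCC, a regulator of the cell cycle, had 1.15, 0.717 and 1.14 UMIs per 10000 in dorsal margin cells, against 2.61, 3.77 and 2.71 in ventral margin cells (log2 difference -1.62 ± 0.29, adjusted p = 2.84e-04). TFDP1B, a dimerization partner of E2F factors, had 1.43, 1.54 and 1.53 in dorsal cells, against 3.50, 3.71 and 2.44 in ventral cells (adjusted p = 0.0250). WDR43, a protein of ribosome biogenesis, had 3.79, 4.87 and 4.58 in dorsal cells, against 8.09, 7.51 and 5.52 in ventral cells (adjusted p = 0.0413). These 3 genes were separated between classes, yet TFDP1B and WDR43 lost their calls when any 1 batch was left out. APOC1L, an apolipoprotein gene, had 4.54, 2.45 and 4.90 in dorsal cells, against 8.61, 3.01 and 11.1 in ventral cells (log2 difference -0.85 ± 0.17, adjusted p = 0.00219), and its ranges overlapped although each batch had the lower value in dorsal cells. No gene passed in the lists of G2/M genes (20 tested, median 0.09), S-phase genes (20 tested, median -0.09) and housekeeping genes (12 tested, median 0.07). The largest differences in these lists were those of TOP2A (0.81 ± 0.48), CCNA1 (0.65 ± 0.44), RFC1 (-1.74 ± 1.02), RFC4 (-1.35 ± 1.46), TUBA1B (0.67 ± 1.67) and GAPDH (-0.59 ± 0.33).

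KRT18, a keratin gene, was higher in dorsal margin cells and is a marker of the enveloping layer, the flat outer epithelium of the embryo. It had 7.58, 5.88 and 4.26 UMIs per 10000 in dorsal cells, against 1.86, 0.904 and 2.72 in ventral cells (log2 difference 1.70 ± 0.23, adjusted p = 2.09e-07). Of 23 tested enveloping layer markers KRT18 alone passed, 18 estimates were above 0, and the median was 1.21, while KRT92 and GRHL3 were not found in the table. The markers summed to between 24.2 and 43 UMIs per 10000 in dorsal batches, between 22.4 and 26.6 in ventral batches and between 28.7 and 36.4 in cells with neither gene. The sum of KRT4, KRT5, KRT8, KRT18 and CYT1 exceeded 15 per 10000 in 30 of 110 dorsal cells (27.3%), in 3 of 48 ventral cells (6.25%) and in 18.8% of cells with neither gene. KRT18 is part of that sum, so leaving out the cells above 15 tends to lower it by choice, and its loss is no result. Without those keratin-high cells, KRT18 had 3.59, 1.80 and 2.40 in dorsal cells and 1.11, 0.904 and 2.06 in ventral cells, and its adjusted p was 0.742. The calls of FRZB, XBP1, VENT, TFDP1B and WDR43 were also lost. Without those cells the log2 differences were 1.53 for XBP1, -1.49 for VENT, -0.92 for TFDP1B and -0.65 for WDR43, against 1.62, -1.36, -1.11 and -0.70 with them. FRZB, still without a ventral UMI, then had 0.210, 0.0435 and 0.788 in dorsal cells. In that fit 8 genes stayed higher and 7 lower. VED then had a log2 difference of -1.71 and ADMP of 3.75, at least as large as with those cells. Other cell types showed no called marker. Yolk syncytial layer markers (5 tested, median 0.82) summed to between 0.656 and 1.80 in dorsal and between 0.0603 and 1.02 in ventral batches. HNF4A had 56 UMIs in dorsal and 3 in ventral cells (0.0947 and 0.0119 pooled per 10000). MXTX1 had 52 and 5 UMIs (0.0879 and 0.0198). Germ cell markers (8 tested, median 0.07) summed to between 5.03 and 5.77 in dorsal and between 4.22 and 7.90 in ventral batches, and 5 of 8 estimates were above 0. A DAZL UMI was found in 23.6% of dorsal and 16.7% of ventral cells, and after thinning in 9.17% and 12.5%, and a DND1 UMI in 13.6% of dorsal and 22.9% of ventral cells. The part of such cells in the other differences was not tested.

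The second question was on which side of the axis each difference lay, with the margin cells that held neither CHD nor SZL as the shared comparison. Their sums enter both differences, so the values are given side by side. After thinning to 10000 UMIs, 60.4% of ventral cells kept an SZL UMI and 87.2% of dorsal cells kept a CHD UMI. A cell whose SZL or CHD was missed would fall among those with neither gene, and SZL was lost more often. The share of such cells was not tested, so nearness to this class does not settle the side. VED, EVE1, BAMBIA and VOX were lower in dorsal margin cells than in cells with neither gene, and ventral margin cells were nearer to those cells. VED had 12.7 ± 4.00 UMIs per 10000 in dorsal cells and 35.4 ± 10.1 in ventral cells, against 27.1 ± 2.51 in cells with neither gene (SD, n = 3 batches each). The log2 differences from cells with neither gene were -1.16 ± 0.11 for dorsal and 0.35 ± 0.11 for ventral cells. EVE1 had 2.88 ± 0.65 in dorsal and 10.1 ± 2.75 in ventral cells, against 7.54 ± 0.75 in cells with neither gene. In the same way BAMBIA had 7.81 ± 1.52 and 20.2 ± 3.14, against 14.2 ± 0.13, and VOX had 8.30 ± 0.69 and 17.4 ± 2.12, against 14 ± 0.68. Of 8254 genes tested, 1 was higher in dorsal cells than in cells with neither gene (ADMP, 0.0121%) and 4 were lower (EVE1, VED, BAMBIA and VOX, 0.0485%), which together are 0.0606% of those tested, with adjusted p between 8.76e-05 and 0.00300 in edgeR's test. In ventral cells against cells with neither gene no gene passed in edgeR's test, with 474 of 8254 at an unadjusted p under 0.05 and a smallest adjusted p of 0.196 (APLNRB). DESeq2 called 2 higher and 4 lower there.

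Among the 3 margin classes ADMP was highest in dorsal cells, with 4.42 ± 0.43 UMIs per 10000 in dorsal margin cells, 0.320 ± 0.28 in ventral margin cells and 0.414 ± 0.17 in cells with neither gene. Its log2 differences from the last were 3.55 ± 0.43 for dorsal and -0.22 ± 0.45 for ventral cells. NOTO was similar, with 5.94 ± 2.37 in dorsal, 2.17 ± 1.5 in ventral and 2.04 ± 0.33 in cells with neither gene. FOXA3 and GADD45BA took middle values in cells with neither gene (0.993 ± 0.22 and 1.99 ± 0.47). A smaller set differed on the ventral side. DKK1B had 1.83 ± 0.77 in dorsal and 0.335 ± 0.35 in ventral cells, against 1.74 ± 1.02 in cells with neither gene, with log2 differences of 0.10 ± 0.46 and -2.44 ± 0.52 from the last. The shares of cells with a DKK1B UMI were closer, at 41.8%, 37.5% and 42.4% in the same order. FSCN1A had 14.6 ± 1.37 and 10.2 ± 1.64, against 13.9 ± 0.85, and KRT18 had 5.91 ± 1.66 and 1.83 ± 0.91, against 5.50 ± 2.32. RGCC was a gene of this kind with the higher ventral level, at 1.00 ± 0.25 in dorsal and 3.03 ± 0.64 in ventral cells, against 1.35 ± 0.17 in cells with neither gene. WDR43 leaned the same way, with log2 differences from cells with neither gene of 0.43 ± 0.18 for ventral and -0.24 ± 0.18 for dorsal cells. TFDP1B differed on both sides, at 0.59 ± 0.20 and -0.51 ± 0.20. None of these ventral differences passed edgeR's test, in which the adjusted p was 0.533 for DKK1B, 0.756 for FSCN1A, 0.196 for KRT18 and 0.533 for RGCC. It was 0.830 for WDR43 and 0.807 for TFDP1B. DESeq2 called RGCC, DKK1B and KRT18.

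**Figure D3:**
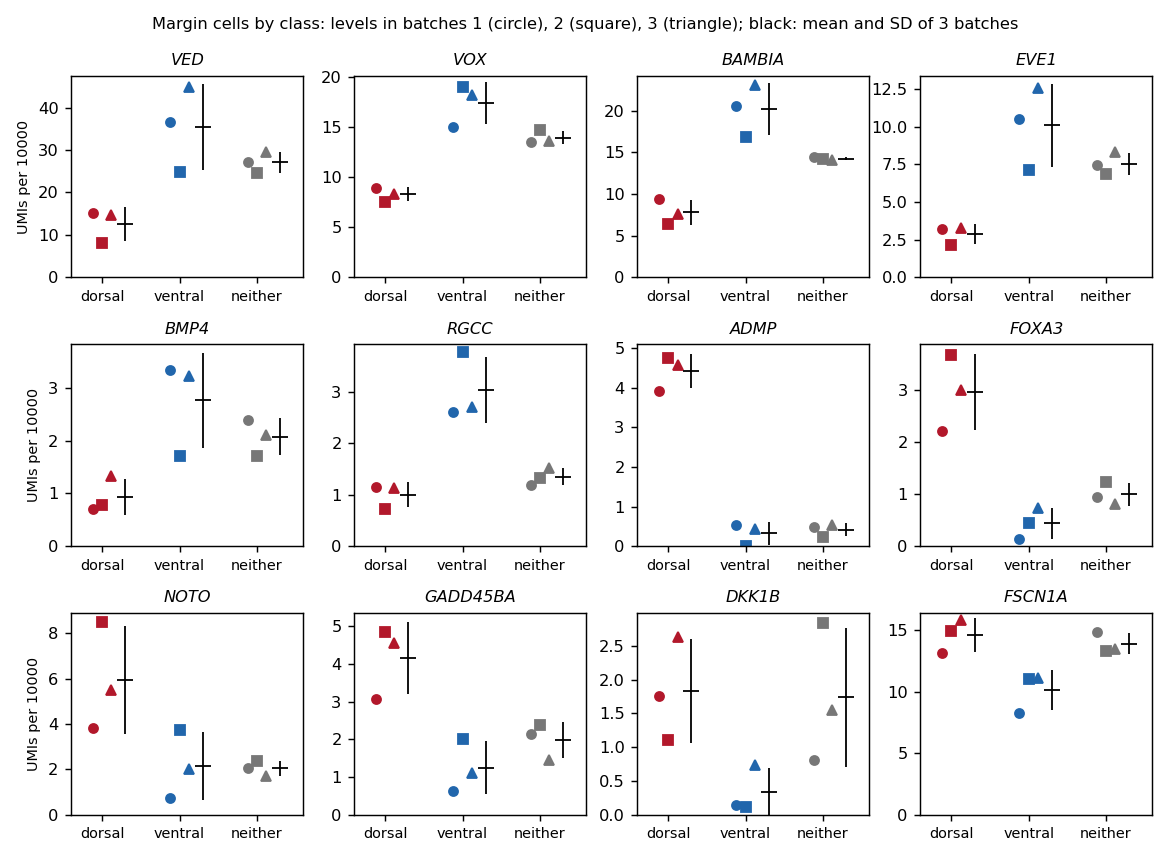
UMIs per 10000 in dorsal margin cells (red), ventral margin cells (blue) and margin cells with neither CHD nor SZL (grey) for 12 genes; coloured symbols are batches and black marks the mean with SD over 3 batches, cut at 0. VED, VOX, BAMBIA and EVE1 are lowest and ADMP is highest in dorsal cells in every batch, and FSCN1A is lowest in ventral cells in every batch.

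The third comparison asked whether the dorsoventral differences were particular to the margin. The same rule on CHD and SZL was applied to cells off the margin, under which 19.1% of 608 cells were CHD-positive and 67 cells were SZL-positive. Off the margin here means TA under 1 per 10000 and is not a known position. A TA UMI was found in 28.45% of these CHD-positive and 29.85% of these SZL-positive cells. In these CHD-positive cells GSC had 0.289, 0.306 and 0.650 and FRZB had 0.273, 0.292 and 1.02, near their dorsal margin levels. Whether margin or organizer cells with little TA were among them was not tested. Of the 11 genes higher at the margin, 10 were also higher in CHD-positive cells in all 3 batches off the margin, and of the 10 lower genes 9 were lower in all 3. The exceptions were KRT18 and VENT. The matching share over all tested genes is not given here. VED had 10.7, 7.72 and 14.7 UMIs per 10000 in CHD-positive cells off the margin, against 30.4, 24.8 and 46.8 in SZL-positive cells, close to the levels at the margin. ADMP had 3.69, 2.6 and 1.44 in CHD-positive cells off the margin, against 0.473, 0.226 and 0.158 in SZL-positive cells. It was thus also higher in CHD-positive cells with TA under 1 per 10000. VENT, by contrast, had 0.854, 0.481 and 0.801, against 0.915, 0.453 and 1.07, and so fell in dorsal cells at the margin while its batches overlapped off it; its interaction did not pass (adjusted p = 1.00). No gene of 8389 passed the edgeR test of the difference between margin and off-margin differences, with 3.74% at an unadjusted p under 0.05. On simulated sums this test found 40% of 8-fold changes, 26% of 4-fold changes and 4% of 2-fold changes. The lack of calls therefore does not show that the differences were equal at and off the margin. DESeq2 called 1 gene with a higher and 3 with a lower difference at the margin. The smallest adjusted p of edgeR's test was 0.0649, for ZIC2A, a zinc-finger gene of dorsal and neural ectoderm that was named after its value was seen. Under the alternatives it was called with DESeq2, with no filter on low counts and with thinned cells, each time with a lower difference at the margin. ZIC2A had 1.28, 1.80 and 2.21 in dorsal and 1.00, 1.45 and 2.81 in ventral margin cells, but 0.884, 1.55 and 1.70 in CHD-positive and 0.0750, 0.302 and 0.274 in SZL-positive cells off the margin (interaction -2.67 ± 0.46). Off the margin the classes were apart, and at the margin they overlapped.

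Dorsal margin cells were not uniform, and the called genes shown here varied with the amount of CHD. The cells were split at 1 and 3 CHD UMIs per 10000, a split chosen after the values were seen and given as a description. CHD chose the class, and the genes shown were called in the first comparison, so these trends add no support to those calls. The share of all genes with such a trend is not given here. The 29 cells with under 1, the 39 cells with 1 to 3 and the 42 cells with 3 or more had median totals of 59880, 55300 and 46790 UMIs. VED had a pooled level of 21.7, 14.7 and 5.04 per 10000 from the lowest to the highest CHD group. BAMBIA had 11.2, 9.20 and 4.57, and EVE1 had 5.66, 2.96 and 0.838. ADMP had 1.00, 2.92 and 8.40 over the same groups, NOTO had 1.52, 3.56 and 10.6, and GADD45BA had 1.57, 2.48 and 7.39. In each batch the highest CHD group had the lowest VED, BAMBIA, VOX and EVE1 and the highest ADMP, NOTO, FOXA3 and GADD45BA. FOXA3 differed from ADMP in shape, with 1.23, 1.15 and 5.71, so that its level stood apart in the highest group alone. The lowest CHD group lay nearer to the margin cells with neither gene (VED 27.1, ADMP 0.408 per 10000, pooled) than to the highest CHD group.

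**Figure D4:**
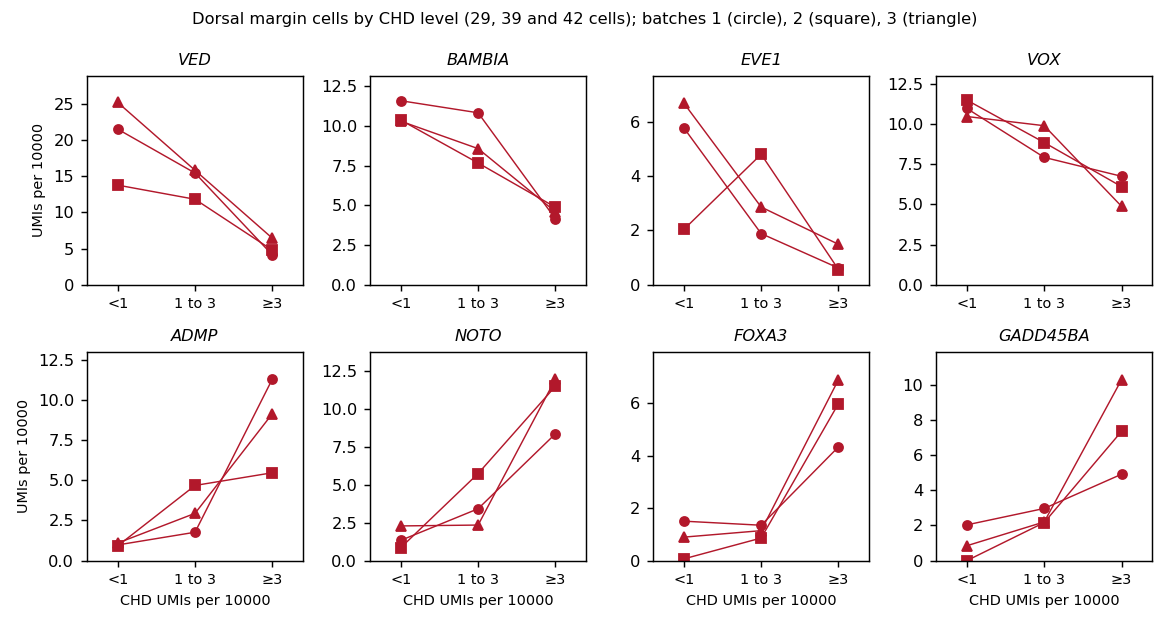
UMIs per 10000 of 8 genes in dorsal margin cells grouped by their CHD level (x axis, CHD UMIs per 10000), with 1 line per batch. The upper 4 genes end lowest and the lower 4 end highest in the group with 3 or more CHD UMIs per 10000.

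Across all 392 margin cells the genes whose level per cell followed CHD most closely were ADMP, NOTO, FOXA3, GSC and XBP1, with Spearman correlations within a batch that averaged 0.507, 0.365, 0.336, 0.326 and 0.321 over the 3 batches. The most negative were those of VED (-0.475), VOX (-0.429), BAMBIA (-0.415), EVE1 (-0.388) and APOC1L (-0.300). SZL was most closely followed by BAMBIA (0.350) and VED (0.279), then by 2 genes known only by clone names (0.240 and 0.220) and by VOX (0.220). These correlations are across cells that share libraries and depth, over 8373 genes, and are descriptions. In single cells VED ran from 0 to 80.1 per 10000 with a median of 9.13 in dorsal cells, against 7.99 to 83.4 with a median of 36.1 in ventral cells. BAMBIA ran from 0 to 33.8 with a median of 6.04 in dorsal cells, against 0.292 to 36.4 with a median of 21.4 in ventral cells. Single cells of the classes thus overlapped where the batch sums did not.

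Cells next to the thresholds of the rule are described by pooled levels over few cells. The 10 dorsal cells with exactly 2 CHD UMIs had 23.8 UMIs of VED, 11 of BAMBIA and 0.669 of ADMP per 10000, and the 14 margin cells with 1 CHD UMI, just outside the rule, had 22.6, 11.8 and 1.02. KRT18 differed more, with 2.43 inside and 7.09 outside. The 14 dorsal cells at most 25% above the TA threshold had 14.4 of VED and 3.44 of ADMP, and the 6 CHD-positive cells at most 25% below it, just outside the rule, had 8.77 and 3.42. VENT had 0.805 in the cells above and 0.0877 in those below. The 7 ventral cells at most 25% above the TA threshold had 36.3 of VED and 2.79 of VENT, and the 5 SZL-positive cells at most 25% below it had 29.3 and 0.633. Thus in pooled levels ADMP was close on both sides of the TA threshold in CHD-positive cells, and VED and VENT were lower outside it on both sides of the axis. By batch this did not hold throughout in CHD-positive cells, which had none of batch 2 below the threshold. ADMP there had 0.491, 4.07 and 20.3 above it in batches 1, 2 and 3, against 2.35 and 4.36 below it in batches 1 and 3. In batch 3 VED had 4.03 above and 9.04 below it, and VENT had 0 and 0.164. In SZL-positive cells VED and VENT were lower below it in batches 1 and 3. Within the ventral class, the 7 with 1 SZL UMI had 32 of VED and 18.4 of BAMBIA, and the 41 with 2 or more had 39.3 and 21.5. The 29 margin cells that held both CHD and SZL had 28.0 of VED, 16.5 of BAMBIA, 1.47 of ADMP and 2.26 of NOTO. These 4 levels lay between the dorsal and ventral pooled levels. FSCN1A (8.95, against 14.4 in dorsal and 9.755 in ventral cells) and TA (2.43, against 4.04 and 3.61) lay below both. On the scale that gave 0.50 for the near-identical dorsal pair, the closest pair of these cells, both of batch 3, stood at 1.33. That pair had 6357 and 6442 detected genes, against a median of 4003 in the 29 cells. Whether wells with both genes held more than 1 cell was not tested.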

How the data were processed

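The deposited table holds raw UMI counts for 13902 genes in 1152 wells. Counting was done by the authors. Bowtie (version not given in the sources used here) and the build Zv9 are listed in the submitters' processing notes. Per the labels' protocols, cells were picked by hand, cDNA was tagged with 5 random bases at the 5′ end and libraries kept strand. That allows 1024 tags, so high counts are compressed, and more so the nearer they come to this number. The highest VED count in a member was 484, and the median was 192 UMIs in ventral and 41 UMIs in dorsal margin cells. Counts were not corrected for this here. Gene symbols are as deposited, and the sequences of genes were not used here.

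Members and gene lists were chosen with earlier results of these data known. UMI counts of a class were added up within each batch and tested with edgeR 4.0.16 in R 4.3.3 (quasi-likelihood, TMM normalization, Benjamini-Hochberg adjustment), with batch as a block. The labels say that the number marks an experimental batch, which pairs the sums. They do not say that batches came from separate embryos, so p-values refer to the spread between these batches. Most of that spread was estimated jointly over the tested genes and not from 1 gene alone. The dorsal against ventral fit had 2 residual degrees of freedom per gene and a median of 74.4 prior degrees of freedom from all genes. Tested genes had a UMI in at least 5% of the compared cells. The dorsal class held more cells than the ventral class. A gene found in dorsal cells alone therefore passed this filter more easily than a gene found in ventral cells alone. The fits used 6 sums, 9 sums with the neither class and 12 sums for the interaction. An SE is the log2 difference over the square root of F. The text names genes that passed the test and went 1 way in every batch (at most 15 each way), list members (at most 4 called, or 2 where none was), genes most like CHD or SZL, and others with their values where a list's role called for them, which were chosen after their values were seen. On simulated sums for the dorsal against ventral comparison (8529 genes) the fit found 46% of simulated 8-fold changes, 38% of 4-fold changes and 10% of 2-fold changes. Alternatives used DESeq2 1.42.0, limma 3.58.1 (log2 with a pseudocount of 1), other filters, thinned cells (10000 UMIs), other thresholds and fewer cells or batches; leaving out the near-identical pair was added after seeing the data. No doublet caller was run on the picked cells. Kept wells held 5307 to 132749 UMIs. Intervals and floors cover counting error only.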

Additional observations from a re-analysis of the deposited data

Results flagged for a closer look

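DND1, which encodes an RNA-binding protein needed in germ cells, had opposite directions at and off the margin in all 3 batches. At the margin it had 0.130, 0.275 and 0.154 UMIs per 10000 in dorsal cells, against 0.282, 1.24 and 0.193 in ventral cells. Off the margin it had 0.231, 0.263 and 6.04 in CHD-positive cells, against 0.00750, 0.245 and 0.0947 in SZL-positive cells. The interaction was -5.42 ± 1.32 on the log2 scale and did not pass edgeR's test (adjusted p = 0.910), while with no filter on low counts DND1 was among the 5 genes called with a lower difference at the margin. A single CHD-positive well of batch 3 held 511 of the 650 DND1 UMIs off the margin (78.6%), and without it the pooled level of that class was 0.226 instead of 1.05 per 10000. In ventral margin cells a single well of batch 2 held 41 of 94 UMIs. Whether these wells hold germ cells was not tested.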

How the results depend on the processing

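Of the 21 genes called between dorsal and ventral margin cells, 5 (VED, VOX, BAMBIA, EVE1 and FOXA3) kept their call under all 15 alternatives, and none of the 21 changed direction under any. The counts there were 11 higher and 10 lower, and 7 and 6 with genes detected in at least 10% of cells, 3 and 4 with no replicate block, and 6 and 4 with limma. Leaving out a batch gave 6 to 13 higher and 5 to 8 lower, and the lowest counts were 6 higher without batch 1, and 5 lower without batch 1 and without batch 3. For dorsal cells against cells with neither gene, 1 higher and 4 lower became 5 and 8 with DESeq2, 7 and 9 with no filter, 5 and 7 with thinned cells, 1 and 0 with no replicate block and 2 and 5 without keratin-high cells. Leaving out a batch gave 1 to 2 higher (2 without batch 1) and 3 to 5 lower. For ventral cells against cells with neither gene, 0 calls became 2 higher and 4 lower with DESeq2, 3 and 10 with no filter and 0 and 7 with thinned cells, and leaving out a batch gave 0 to 1 each way (VED higher without batch 2, KRT18 lower without batch 3). The interaction, with 0 calls, gave 1 higher and 3 lower with DESeq2, 0 and 5 with no filter and 0 and 2 with thinned cells, and 0 without any 1 batch. The causes were not tested. Among uncalled genes, leaving out a batch gave log2 differences of -2.84 to 0.036 for RFC4 (the highest without batch 3) and of -0.68 to 2.39 for TUBA1B (the lowest without batch 2), and thinned cells gave -0.35 for TUBA1B. The 6 ventral cells of batch 2 limit the ventral sums, and 45% of the dorsal UMIs of FRZB came from 1 well.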

Other observations

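CHD and SZL chose the classes, so how often they met in a cell is given as a description. Of 77 SZL-positive margin cells 29 held a CHD UMI (37.7%), against 39.4% of SZL-negative margin cells, at median totals of 49890 and 46490 UMIs. By batch the shares were 37.9% of SZL-positive and 51.1% of SZL-negative cells in batch 1, 14.3% and 32.2% in batch 2, and 41.5% and 36.3% in batch 3, so their order was not the same in every batch. After each cell was thinned to 10000 UMIs they were 17.8% of the 45 cells that kept an SZL UMI and 31.2% of the others. Without wells of over 5000 detected genes they were 33.3% and 38.6%. Such wells made up 6 of the 29 margin cells with both genes (20.7%), 4 of 110 dorsal cells, 2 of 48 ventral cells and 1.05% of cells with neither gene.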
